A study of Mus musculus with 5 samples.

Results

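The EGF family is a set of growth factors and receptors, and 10 of its genes were examined by symbol among the 25414 genes of the deposited expression files. They are the receptors Egfr, Erbb2, Erbb3 and Erbb4 and the ligands Egf, Hbegf, Tgfa, Areg, Ereg and Nrg1, which together held 13 of the 40201 RefSeq transcripts listed for each sample. RNA-seq was available for neural stem cells (NSCs, 2 replicates) and STO cells (3 replicates), both labelled as strain C57BL/6. The methods describe STO cells as derived from SIM mouse embryos and resistant to thioguanine and ouabain, so a shared strain is not certain. NSCs were primary cells from embryonic mouse cortex, used at passages 5 to 8 and grown in a medium with 20 ng/ml EGF, 20 ng/ml bFGF and 20 ng/ml heparin. STO cells are an embryonic fibroblast line that serves as a feeder layer for germline stem cells, used after more than 30 passages in a medium with 10% FBS and no growth factor listed. Cell type, culture medium, passage and possibly strain therefore differed together and cannot be told apart. The labels do not say whether replicates came from separate cultures, so p-values measure the spread between these samples only.

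EGF family ligands are made as membrane proteins that are cut at the cell surface and bind receptors of the ERBB family, which then form dimers and signal through their tyrosine kinases to the ERK and AKT pathways. EGFR is bound by EGF, HB-EGF, TGF-alpha, amphiregulin and epiregulin, and HB-EGF and epiregulin also bind ERBB4, whereas neuregulins bind ERBB3 and ERBB4. ERBB2 has no known ligand and acts as a partner in dimers, and ERBB3 has little kinase activity of its own. EGF is used to keep neural stem cells dividing in culture, and the receptors ERBB3 and ERBB4 are well known in glia and neurons.

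Values are FPKM, fragments per kilobase of transcript scaled to library depth, summed over the transcripts of a gene. Implied fragments per library ranged from 15223341 to 22271895, as read from the width of the deposited confidence intervals. Replicates of the same cell type correlated across 11712 genes with Pearson's r of 0.994 to 0.995 and were not copies of each other, since no transcript above 0 was identical. All 6 markers of neural stem cells or progenitors had a mean of at least 1 FPKM in NSCs and none in STO cells, where Sox2, Pax6, Olig2 and Fabp7 were listed at 0. All 7 fibroblast markers reached 1 FPKM in STO cells and 1 did in NSCs. NSC cultures also held all 4 astrocyte markers, 4 of 5 oligodendrocyte lineage markers and 5 of 6 neuronal markers at 1 FPKM or more, against 0, 0 and 2 in STO cells. Microglial, endothelial and epithelial markers all stayed under 1 FPKM in both.

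NSCs and STO cells carried the EGF family in different combinations. NSCs had high Egfr and Hbegf together with Tgfa and Erbb4, whereas STO cells had high Ereg together with Erbb2 and Nrg1 and less Egfr. Of the 8 genes with a mean of at least 1 FPKM in either cell type, 3 were higher in STO cells (Erbb2, Ereg and Nrg1) and 5 were lower (Egfr, Erbb4, Hbegf, Tgfa and Areg), at a Benjamini-Hochberg adjusted p under 0.05 in limma across all genes. These calls carry little information by themselves, since 41.9% of all 12292 genes tested were called higher in STO cells and 43.7% lower. With a difference of at least 1 in log2(FPKM + 1) also required, 3 of the 8 were higher and 4 lower, against 17.1% and 21.3% of all genes. The median absolute difference was 2.36 over the 8 genes and 0.74 over all genes tested. The family was chosen with earlier results of these data known, so this contrast is not a test. Erbb4, Tgfa and Ereg reached 1 FPKM only in the cell type where they are high. Erbb3 and Egf were under 1 FPKM in both cell types, were not tested in this fit and are not in the median. Without that minimum they differed by -0.12 and 0.13 in log2(FPKM + 1).

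**Figure D1:**
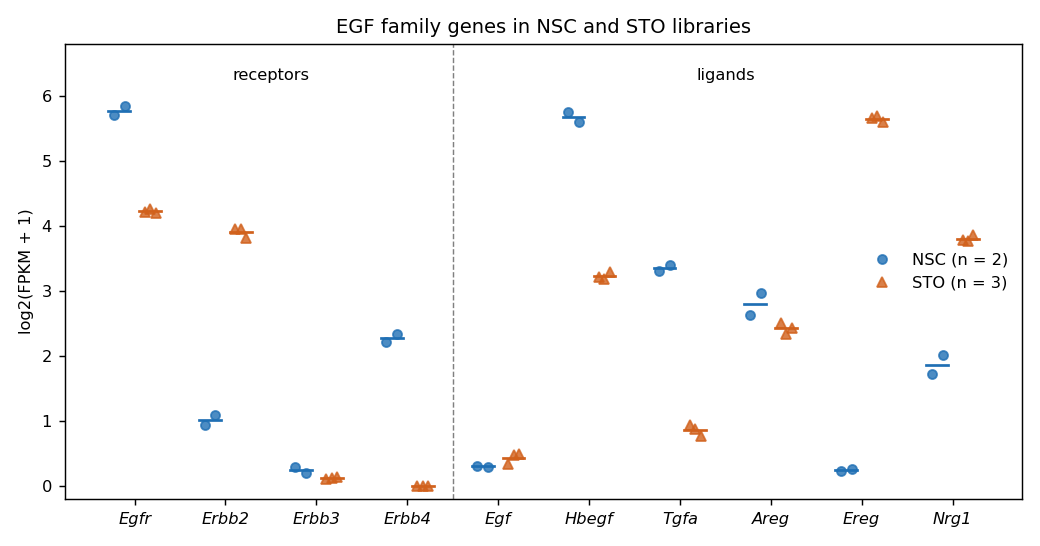
Level of each EGF family gene as log2(FPKM + 1), with a circle for each NSC library (n = 2), a triangle for each STO library (n = 3) and a line at the mean. Egfr, Erbb4, Hbegf and Tgfa lie higher in NSCs, and Erbb2, Ereg and Nrg1 higher in STO cells. Areg, Erbb3 and Egf differ by less than 1 on this scale.

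Of the receptors, Egfr, the receptor for EGF itself, was the most abundant in both cell types. It was at 51.2 and 56.4 FPKM in the NSC replicates and at 17.5, 18.2 and 17.3 FPKM in the STO replicates. Both NSC values lay above all STO values, and the ratio of the means was 3.04, with 2.81 to 3.26 for any NSC replicate over any STO replicate. In log2(FPKM + 1), STO cells were lower by -1.55 ± 0.061 (SE, limma, adjusted p = 1.21e-06). Of all genes tested, 23.1% moved further than this. Egfr spans chr11:16652206-16813910 in mm9 on the forward strand.

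Erbb2, the receptor without a known ligand, showed the opposite direction. It was at 0.910 and 1.13 FPKM in NSCs and at 14.4, 14.4 and 13.1 FPKM in STO cells. STO values were all above NSC values, 13.7 times higher by the means and 11.6 to 15.9 times higher between any STO and any NSC replicate. The difference was 2.89 ± 0.075 in log2(FPKM + 1) (SE, limma, adjusted p = 1.65e-07). Its locus, chr11:98273798-98299030 in mm9, shares 9 bases with the neighbouring gene Mien1, which had means of 45.5 FPKM in NSCs and 13.5 FPKM in STO cells. Erbb3 and Egf also overlap other genes, which were listed at 0 in every library. Within a library, Egfr exceeded Erbb2 by 56.2 and 49.8 times in the NSC replicates and by 1.22, 1.26 and 1.32 times in the STO replicates.

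The promoter sequences of Egfr and Erbb2 are given because these receptors moved in opposite directions, and that of Areg because it had the smallest difference of the ligands tested and lies beside Ereg, which had the largest. They are the 250 bases before the transcript start in RefSeq (GRCm38.p6, another build than the mm9 loci), from a table that held 6 of the 10 genes: Egfr, Erbb2, Erbb4, Egf, Tgfa and Areg. Each is written 5′ to 3′ on the strand of the gene, all forward, with capitals for the matched motifs. The motifs searched on both strands were the GC box (GGGCGG), the TATA box (TATAAA), the cyclic AMP response element (TGACGTCA), the AP-1 site (TGANTCA) and the E-box (CACGTG).
Egfr, chr11:16751953-16752202: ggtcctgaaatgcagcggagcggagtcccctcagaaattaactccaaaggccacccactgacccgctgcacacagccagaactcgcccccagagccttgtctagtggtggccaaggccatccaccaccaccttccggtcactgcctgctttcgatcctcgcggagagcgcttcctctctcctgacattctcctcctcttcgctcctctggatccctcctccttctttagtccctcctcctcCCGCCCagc
Erbb2, chr11:98412234-98412483: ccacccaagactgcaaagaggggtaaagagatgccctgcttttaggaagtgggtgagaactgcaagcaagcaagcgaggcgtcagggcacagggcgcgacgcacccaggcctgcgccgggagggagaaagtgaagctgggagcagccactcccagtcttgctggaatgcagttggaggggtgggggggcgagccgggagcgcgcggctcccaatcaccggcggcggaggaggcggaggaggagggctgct
Areg, chr5:91139349-91139598: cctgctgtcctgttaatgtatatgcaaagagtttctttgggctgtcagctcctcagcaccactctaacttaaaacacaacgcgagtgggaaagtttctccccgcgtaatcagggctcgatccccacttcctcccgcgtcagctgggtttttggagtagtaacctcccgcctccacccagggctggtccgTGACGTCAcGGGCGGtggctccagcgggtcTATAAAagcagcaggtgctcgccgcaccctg

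The Egfr sequence held a GC box read on the reverse strand, from 9 to 4 bases before the start, and none of the other motifs. None of the 5 motifs was in the Erbb2 sequence. The Areg sequence held a cyclic AMP response element from 61 to 54 bases before the start, a GC box from 52 to 47 and a TATA box from 31 to 26, and none of these overlapped. Of the other 3 genes in the table, Tgfa had 2 GC boxes and Erbb4 and Egf had none of the motifs. Among 32851 promoter sequences of the same length, 32.7% held a GC box, 12.4% a TATA box, 1.55% a cyclic AMP response element, 6.75% an AP-1 site and 6.02% an E-box. G and C made up 60.8% of the Egfr sequence, 66.0% of Erbb2 and 57.2% of Areg, against a median of 52.4%. A match describes letters only, and binding was not measured here.

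Erbb4, a neuregulin receptor with an active kinase, was at 3.64 and 4.06 FPKM in NSCs. In STO replicate 1 it was at 0.0037 FPKM, which is 1 fragment, and it was listed at 0 in STO replicates 2 and 3. The 3037 fragments in both NSC libraries and the 1 fragment in the 3 STO libraries gave a ratio of 3823 after depth was taken into account, with an exact (Clopper-Pearson) 95% interval of 686 to 151064 that covers counting error only. By limma the difference was -2.27 ± 0.052 in log2(FPKM + 1) (SE, adjusted p = 9.07e-08), and -5.28 with a pseudocount of 0.1, since the STO level is near 0. Summed marker levels of several neural cell types moved the same way. The 6 neural stem or progenitor markers summed to 3811 to 4028 FPKM in NSCs and to 0.044 to 0.072 FPKM in STO cells. The sum of the 5 oligodendrocyte lineage markers was 129 to 132 in NSCs and 0.977 to 1.14 in STO cells. That of the 6 neuronal markers was 127 to 129 and 12.4 to 12.9, and that of the 4 astrocyte markers 70.4 to 71.4 and 0.242 to 0.432. Map2 made up most of the neuronal sum in NSCs (100 and 102 FPKM), and Tubb3 overlapped between the groups. The part of these cell types in the level of Erbb4 was not tested. In such bulk samples, fewer cells of a type cannot be told apart from less RNA per cell. Erbb4 lies at chr1:68078761-69154633 in mm9 on the reverse strand.

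Erbb3, the other neuregulin receptor, was barely detected. It was at 0.221 and 0.144 FPKM in NSCs and at 0.077, 0.087 and 0.094 FPKM in STO cells, on 20 to 28 and on 7 to 13 implied fragments per library. NSC values were above STO values without overlap, which gives a two-sided exact permutation p of 0.2, the smallest value that 2 against 3 samples allow in this test. When the filter on low values was left out, limma called it lower in STO cells (difference -0.12 in log2(FPKM + 1), adjusted p = 0.018), in a fit that called 37.0% of its 17724 genes lower.

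The make-up of the receptors differed accordingly. The 4 receptors summed to 55.9 and 61.8 FPKM in NSCs and to 32.0, 32.7 and 30.5 FPKM in STO cells. Egfr made up 91.4% ± 0.076 (SD, n = 2) of this sum in NSCs and 55.7% ± 1.02 (SD, n = 3) in STO cells. Erbb2 made up 1.73% ± 0.15 (SD, n = 2) in NSCs and 44.0% ± 1.04 (SD, n = 3) in STO cells. Erbb4 took 6.54% ± 0.044 (SD, n = 2) in NSCs and at most 0.012% in any STO library. Erbb3 took 0.31% ± 0.11 (SD, n = 2) and 0.27% ± 0.034 (SD, n = 3), which lay within the spread between replicates. NSCs thus carried almost all receptor mRNA as Egfr, and STO cells divided it between Egfr and Erbb2.

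**Figure D2:**
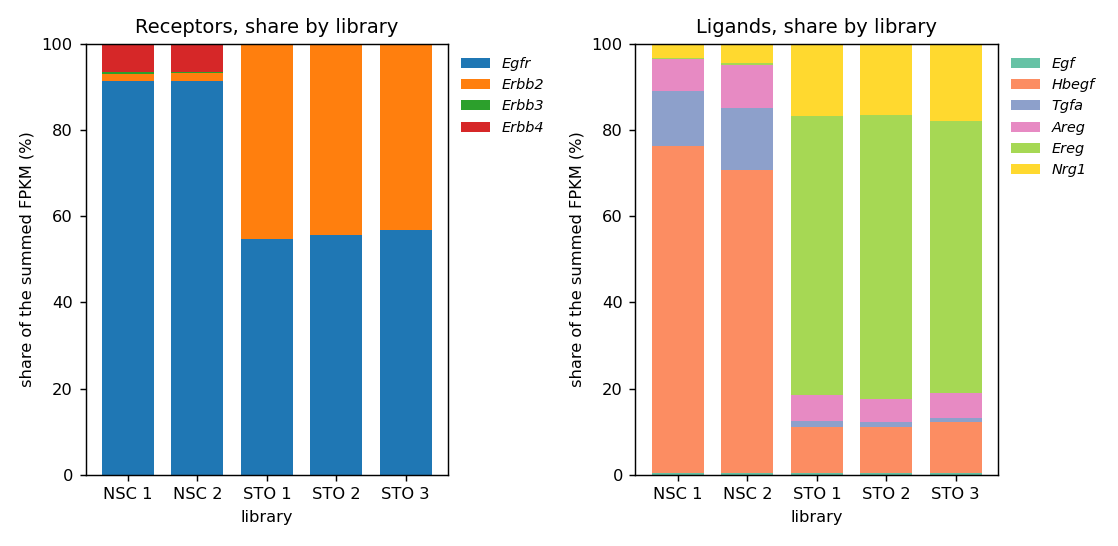
Share of each receptor in the summed FPKM of the 4 receptors (left) and of each ligand in that of the 6 ligands (right), in percent, for each library. Egfr fills 91.5% and 91.4% of the receptor bars of NSC replicates 1 and 2, and Egfr and Erbb2 share them in STO cells, while Hbegf leads the ligands in NSCs and Ereg in STO cells.

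Egfr was the only receptor with more than 1 RefSeq transcript. NM_207655 reaches base 16813910 in mm9, whereas the GENCODE gene goes on to base 16818161. NM_007912 has the same start as NM_207655 but ends 26249 bases earlier, at chr11:16787661 in mm9. The GENCODE transcript that ends nearest to it, 265 bases away, has a coding sequence of 1968 bases, 54.2% of the 3633 bases of the long form, and such a short form is known to encode the outer part of the receptor without its kinase. The short transcript was at 11.0 and 13.2 FPKM in NSCs and was listed at 0 in all 3 STO replicates. Its implied fragments in NSCs, 432 and 539, assume counting error only and may be off where transcripts share exons. Its share of Egfr was 22.4% ± 1.34 (SD, n = 2) in NSCs. The long transcript was at 40.2 and 43.2 FPKM in NSCs and at 17.5, 18.2 and 17.3 FPKM in STO cells, a ratio of 2.36. For the share of the short transcript and for the level of the long one, the samples did not overlap between groups (two-sided exact permutation p = 0.2 each, the smallest possible). With the most abundant transcript of each gene alone, the difference of Egfr was -1.19 in log2(FPKM + 1). Fragments in the shared exons were divided between the transcripts by Cufflinks, so these levels are estimates, and a listed 0 can also be a failed assignment.

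**Figure D3:**
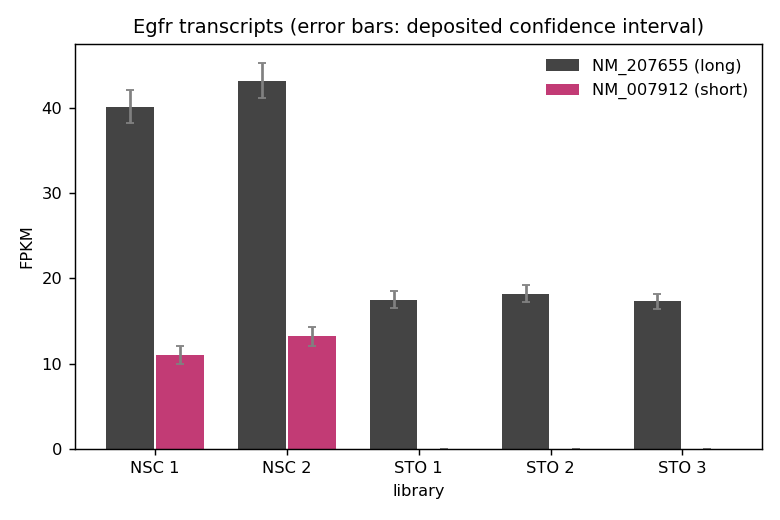
FPKM of the long and the short Egfr transcript in each library, with error bars for the deposited confidence interval. The short transcript reaches 11.0 and 13.2 FPKM in the NSC libraries and is listed at 0 in the 3 STO libraries.

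Among the ligands, Hbegf, which encodes heparin-binding EGF-like growth factor, led in NSCs. It was at 53.0 and 47.3 FPKM in NSCs and at 8.27, 8.08 and 8.82 FPKM in STO cells. NSC values were all higher, by 5.98 times in the means and by 5.36 to 6.57 times between any replicates. The difference was -2.44 ± 0.070 in log2(FPKM + 1) (SE, limma, adjusted p = 2.59e-07). Its locus is chr18:36664581-36675459 in mm9 on the reverse strand.

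Tgfa, the gene of TGF-alpha, moved in the same direction. It was at 8.85 and 9.59 FPKM in NSCs and at 0.916, 0.834 and 0.710 FPKM in STO cells, 11.2 times higher in NSCs by the means. Every NSC value exceeded every STO value, and the difference was -2.49 ± 0.069 in log2(FPKM + 1) (SE, limma, adjusted p = 2.19e-07). Tgfa lies at chr6:86145221-86225737 in mm9 on the forward strand.

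Ereg, the gene of epiregulin, showed the largest difference of the 8 genes tested in log2(FPKM + 1). As a ratio Erbb4 differed more, by 3823 times with 1 fragment in STO cells. It was at 0.169 and 0.204 FPKM in NSCs, on 22 and 29 implied fragments, and at 49.4, 50.5 and 47.6 FPKM in STO cells, on 4567 to 6596. STO cells exceeded NSCs by 264 times in the means and by 234 to 298 times between any replicates. The difference was 5.40 ± 0.054 in log2(FPKM + 1) (SE, limma, adjusted p = 5.75e-09), and only 190 of 12292 genes, 1.55%, moved further. Ereg alone thus reached in STO cells about the level that Hbegf had in NSCs.

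Areg, the gene of amphiregulin, differed little. It was at 5.21 and 6.81 FPKM in NSCs and at 4.67, 4.08 and 4.38 FPKM in STO cells. The groups did not overlap, but the lower NSC replicate was near the highest STO replicate. STO cells were lower by -0.37 ± 0.11 in log2(FPKM + 1) (SE, limma, adjusted p = 0.017), and 72.2% of all genes moved further. Without NSC replicate 2 the difference was -0.21 and not past the threshold (adjusted p = 0.096).

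Ereg and Areg are neighbours in a cluster of 4 EGF family ligands on chromosome 5 that also holds Epgn and Btc. In mm9, Epgn lies at chr5:91456543-91464238, Ereg at chr5:91503643-91522675, Areg at chr5:91568625-91577458 and Btc at chr5:91786287-91832020. Only 46.0 kb separate the end of Ereg from the start of Areg, and 39.4 kb the end of Epgn from the start of Ereg. Epgn, the gene of epigen, was at 0.056 and 0.051 FPKM in NSCs and at 0.130, 0.295 and 0.256 FPKM in STO cells, on 3 to 15 implied fragments per library. Btc, the gene of betacellulin, was at 0.520 and 0.505 FPKM in NSCs and at 0.755, 0.565 and 0.708 FPKM in STO cells. Epgn and Btc were higher in every STO than in every NSC replicate (two-sided exact permutation p = 0.2 each, the smallest possible) but stayed under 1 FPKM. Of the cluster, only Ereg and Areg thus passed 1 FPKM in either cell type, and in NSCs Areg exceeded Ereg while in STO cells Ereg exceeded Areg by 10.6 to 12.4 times.

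**Figure D4:**
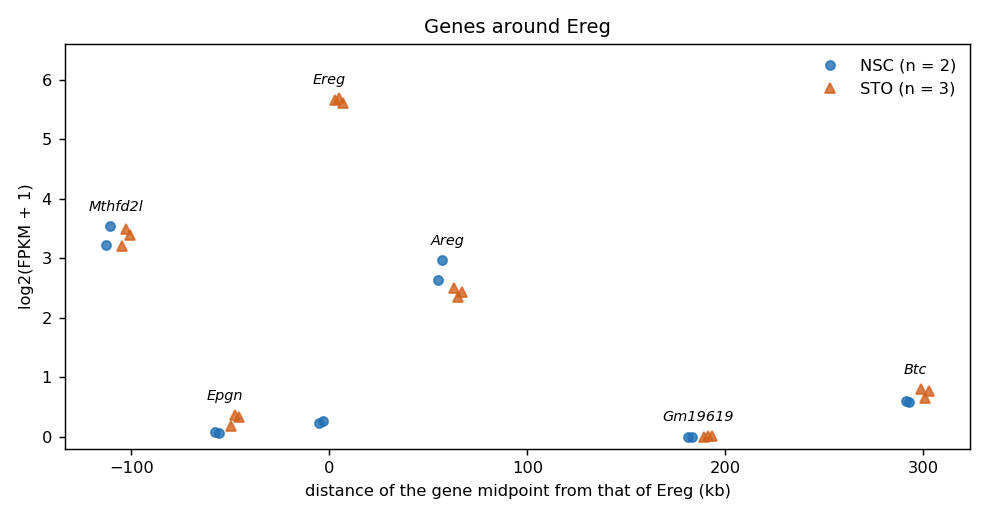
Levels of the genes around Ereg as log2(FPKM + 1) against the distance of the gene's midpoint from that of Ereg in kb, with circles for NSC libraries (n = 2) and triangles for STO libraries (n = 3), set slightly apart. Ereg is under 1 FPKM in the NSC libraries and above it in the STO libraries. Epgn, Btc and Gm19619 are under 1 FPKM in every library, and Areg and Mthfd2l are above 1 FPKM in all libraries.

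Nrg1, the gene of neuregulin 1, was higher in STO cells. It was at 2.28 and 3.02 FPKM in NSCs and at 12.7, 12.6 and 13.5 FPKM in STO cells, 4.88 times higher by the means and 4.18 to 5.90 times between any replicates. All STO values were above the NSC values, with a difference of 1.94 ± 0.094 in log2(FPKM + 1) (SE, limma, adjusted p = 3.21e-06). The files list a single Nrg1 transcript, NM_178591, at chr8:32928500-33028675 in mm9, whereas the GENCODE gene goes on to base 33119581, so forms that start further upstream are seen only through shared exons. Nrg1 was thus higher in the cells with almost no Erbb4, while Erbb3 was under 1 FPKM in both cell types.

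Egf itself was low in both. Its sum over 3 transcripts was 0.239 and 0.224 FPKM in NSCs and 0.267, 0.393 and 0.400 FPKM in STO cells, on 17 to 44 implied fragments. STO values were above NSC values (two-sided exact permutation p = 0.2, the smallest possible), and without the filter on low values limma gave an adjusted p of 0.062. The full-length transcript NM_010113 had at most 0.059 FPKM in any library, and most of the signal was given to short transcripts that begin inside the gene. In NSC replicate 1 it went to NM_001310737 and in NSC replicate 2 to NM_001329594, which have the same listed start and end.

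The 6 ligands summed to 69.8 and 67.1 FPKM in NSCs and to 76.2, 76.5 and 75.4 FPKM in STO cells, slightly higher in every STO library. Their make-up differed more than their sum. Hbegf was 73.2% ± 3.93 (SD, n = 2) of the sum in NSCs and 11.0% ± 0.59 (SD, n = 3) in STO cells, and Tgfa was 13.5% ± 1.13 (SD, n = 2) and 1.08% ± 0.13 (SD, n = 3). Ereg was 0.27% ± 0.043 (SD, n = 2) in NSCs and 64.6% ± 1.42 (SD, n = 3) in STO cells, and Nrg1 was 3.89% ± 0.87 (SD, n = 2) and 17.0% ± 0.73 (SD, n = 3). Areg was 8.80% ± 1.89 (SD, n = 2) in NSCs and 5.75% ± 0.40 (SD, n = 3) in STO cells, and the libraries did not overlap.

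By level, the order in NSCs was Egfr, Hbegf, Tgfa, Areg, Erbb4, Nrg1, Erbb2, Egf, Ereg and Erbb3. Egfr and Hbegf overlapped between replicates there, as did Ereg and Erbb3, and all other neighbours in this order were apart. In STO cells the order was Ereg, Egfr, Erbb2, Nrg1, Hbegf, Areg, Tgfa, Egf, Erbb3 and Erbb4, and only Erbb2 and Nrg1 overlapped. Egfr and Hbegf in NSCs and Ereg in STO cells were each above 90.1% to 90.8% of the genes detected in that cell type. The 3 genes nearest to Egfr over the 5 samples were Pkig, Dgkz and Mapk8ip3, at Euclidean distances of 0.15, 0.18 and 0.21 in log2(FPKM + 1). Dgkz, for example, had 57.3 FPKM in NSCs and 17.3 FPKM in STO cells.

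**Figure D5:**
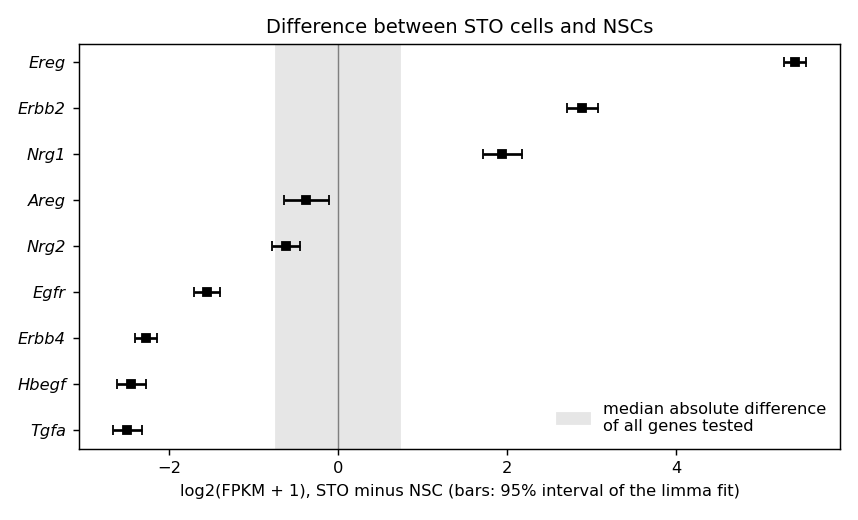
Difference in log2(FPKM + 1), STO minus NSC, for the 8 EGF family genes tested and Nrg2, with bars for the 95% interval of the limma fit. The shaded band spans the median absolute difference of all genes tested, 0.74, and Areg and Nrg2 have estimates inside it.

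Of the 5 other EGF family ligands, only Nrg2 passed the filter on low values. This neuregulin was at 1.53 and 1.20 FPKM in NSCs and at 0.533, 0.519 and 0.555 FPKM in STO cells, and was called lower in STO cells (difference -0.62 in log2(FPKM + 1), limma, adjusted p = 0.00017). Nrg3 was at 0.016 and 0.0073 FPKM in NSCs and listed at 0 in STO cells, and Nrg4 was listed at 0 in every library. Nrg1 and Nrg2, both neuregulins, thus differed in opposite directions.

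Genes that release ligands from the membrane or regulate that release, with the inhibitor gene Timp3 among them, were mostly present in both cell types. Of 12 in this list 10 were tested, and 6 were higher and 3 lower in STO cells, where 41.9% of all genes tested were called higher and 43.7% lower, with a median difference of 0.26 in log2(FPKM + 1) against -0.023 for all genes tested. Adam10 and Adam17, the main proteases that cut EGF family ligands, were at 53.3 and 12.3 FPKM in NSCs and at 47.4 and 26.4 FPKM in STO cells, named here after their values were seen. Rhbdf2, an inactive rhomboid that brings ADAM17 to the cell surface, rose from 0.084 to 3.51 FPKM (adjusted p = 3.31e-07 in limma). Timp3, an inhibitor of ADAM17 and of matrix metalloproteinases, rose from 14.4 to 200 FPKM (adjusted p = 2.19e-08 in limma). Adam12, a protease that can cut HB-EGF, fell from 26.8 FPKM in NSCs to 0.897 FPKM in STO cells (adjusted p = 2.34e-08 in limma), and Adam19 from 15.1 to 10.2 FPKM. Rise and fall here and below mean the STO against the NSC level.

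The genes that relay the signal inside the cell were all above the filter. Of 29, 12 were higher and 14 lower in STO cells and 3 were not called, with a median difference of -0.055. These counts are near the shares over all genes, 41.9% higher and 43.7% lower. Shc1, an adaptor that binds activated receptors, rose from 5.83 to 54.5 FPKM (adjusted p = 7.12e-08 in limma), and the transcription factor gene Stat5a from 0.739 to 6.69 FPKM. Gab1, a docking protein that links EGFR to PI3K, fell from 22.7 to 5.10 FPKM (adjusted p = 2.81e-07 in limma), and Pik3r1, a regulatory subunit of PI3K, from 42.1 to 19.7 FPKM. Grb2, the adaptor that couples the receptors to RAS, was at 39.4 FPKM in NSCs and 39.6 FPKM in STO cells and was not called, and is named here after its values were seen.

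Among 18 inhibitors and turnover genes of the receptors, 11 rose and 6 fell (41.9% and 43.7% of all genes tested did so), with a median difference of 0.42. Errfi1, whose product binds the EGFR kinase and blocks it, rose from 7.43 to 79.8 FPKM, with all STO replicates between 77.8 and 80.7 FPKM and the NSC replicates at 7.04 and 7.81 FPKM (adjusted p = 3.36e-08 in limma). Lrig3, of the LRIG membrane proteins, rose from 1.28 to 23.4 FPKM (adjusted p = 2.16e-08 in limma). Its relative Lrig1, which promotes degradation of ERBB receptors, fell from 72.8 to 35.0 FPKM (adjusted p = 5.65e-06 in limma), and Ptprj, a receptor phosphatase, fell from 10.7 to 3.34 FPKM. Hgs, named after its values were seen, was the only gene of this list that was not called.

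Of 11 partners of the ligands and receptors 10 were tested, and 7 rose and 3 fell, beside 41.9% and 43.7% of all genes tested, with a median difference of 0.75. Cd9, a tetraspanin that binds the HB-EGF precursor, fell from 135 to 59.2 FPKM (adjusted p = 2.62e-06 in limma), and the tetraspanin gene Cd81 from 593 to 252 FPKM. Met, the receptor of hepatocyte growth factor, rose from 0.747 to 21.2 FPKM, and Anxa1, an EGFR substrate, from 0.680 to 370 FPKM (adjusted p = 5.29e-09 in limma).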

How the data were processed

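RNA-seq of 2 NSC and 3 STO samples was used, assigned to cell type and replicate by their titles. By the methods and the submitters' processing notes, reads of stranded mRNA libraries were placed on mm9 by Hisat2, and Cufflinks 2.2.1 estimated the level of RefSeq transcripts. Whether strand was used in that step is not given in the sources used here. The authors deposited FPKM values with bounds of their confidence intervals, so depth was already divided out. Symbols were matched by accession through a RefSeq table of GRCm38.p6 (39951 of 40201 transcripts), used for names only, and the transcripts of a symbol were added up where their loci overlap. Loci are those of the files in mm9, counted from 1, with strands from GENCODE of the same build.

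Implied fragments are the square of 2 times FPKM over the upper bound minus FPKM, which takes the bound to lie 2 Poisson standard deviations above the value. Intervals from them cover counting error only. For genes with more than 1 transcript the bounds may also hold uncertainty of assignment, so implied fragments are not counts there. Relative depth was 0.719 to 1.09 of NSC replicate 1.

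STO cells and NSCs were compared by moderated linear models (limma 3.58.1, R 4.3.3, variance trend on) of log2(FPKM + 1) over 12292 genes with a mean of at least 1 FPKM in either cell type, with Benjamini-Hochberg adjustment over all of them and a threshold of 0.05. This scale understates the change of low genes. The fit was also run on simulated data in which few genes changed, unlike here, so that run does not measure its errors in these data. Its alternatives are given in the closing section. Other steps used Python 3.11.15, scipy 1.17.1 and pandas 2.3.3. The named genes were the 10 family genes, all other family ligands, and up to 2 genes that rose and 2 that fell most in each list, with groups apart, beside the 3 genes nearest to Egfr. Adam10, Adam17, Grb2, Hgs and the genes outside the chromosome 5 cluster were named outside this rule, after their values were seen, and Mien1 for its overlap with Erbb2. Family genes and lists were chosen with earlier results of these data known.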

Additional observations from a re-analysis of the deposited data

How the results depend on the processing

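Alternatives changed the pseudocount (0.1), the filter on low values, the scaling (size factors), the trend, the replicate block, the transcripts (status OK only, most abundant only), the minimum difference, and each library left out in turn. All 8 family genes tested kept their direction in the 13 alternatives run. Since their groups did not overlap, leaving out a library or changing the pseudocount could not reverse it. The filter, the trend, the status and the minimum difference left their estimates unchanged, and the replicate block gave those without STO replicate 3. The alternatives are therefore not 13 independent checks. Areg lost its call without NSC replicate 2 and with a minimum difference of 1, and the other 7 kept theirs in all 13. When a minimum difference of 1 was required, the calls numbered 2103 (higher in STO cells) and 2617 (lower) over all genes, or 17.1% and 21.3%. In the pathway lists they numbered 17 and 7, against 36 and 27 without that minimum, where the shares over all genes were 41.9% and 43.7%. The lists held 1, 10, 29, 18 and 10 tested genes. With the replicate block, 4994 genes were higher and 5252 lower, and 3 family genes were higher and 5 lower, as without it. The replicate numbers are shared by NSC and STO samples but nothing pairs them, and deviations of equally numbered samples correlated by 0.0075 and 0.061. Leaving out an NSC replicate leaves 1, which was then assumed to vary like the STO samples. Depth limits Erbb3, Egf, Epgn and Nrg3, and Ereg in NSCs, which rest on few fragments. With 2 NSC samples and 3 STO samples no group was large enough to test for an outlying library.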

Other observations

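Beyond the ligand cluster on chromosome 5, the genes within 300 kb of either end of it were looked at after the values of Ereg were seen. Mthfd2l, the next gene before Epgn and a mitochondrial folate enzyme, was at 8.29 and 10.7 FPKM in NSCs and at 8.28, 10.2 and 9.48 FPKM in STO cells and was not called (limma adjusted p = 0.89). Next on its far side was Cxcl2, a chemokine gene at -179 kb from Ereg between midpoints. It had means of 0.015 FPKM in NSCs and 0.021 FPKM in STO cells. Cxcl1, a chemokine gene at -192 kb, was at 0.268 and 0.489 FPKM in NSCs and at 242, 240 and 249 FPKM in STO cells. The difference of Cxcl1 was 7.48 in log2(FPKM + 1) (limma adjusted p = 5.75e-09). Cxcl5, a chemokine gene at -324 kb, was at 0.250 and 0.280 FPKM in NSCs and at 81.7, 76.2 and 71.6 FPKM in STO cells (difference 5.93, limma adjusted p = 7.32e-09). Parm1, on the other side of Btc, was lower in STO cells, with 5.16 FPKM in NSCs and 0.244 FPKM in STO cells. Between Cxcl5 and Cxcl1, Ppbp, Pf4, Cxcl3 and Cxcl15 were all under 1 FPKM in every library.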
